A study of Mus musculus with 12 samples.

Results

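The 12 libraries made from mouse angiosarcoma xenografts were divided by whether the mouse had received trametinib, an inhibitor of the kinases MEK1 and MEK2. The trametinib arm held 6 tumors of the 12, 3 given trametinib alone at 1 mg/kg and 3 given trametinib at 1 mg/kg with cediranib at 3 mg/kg (combination). The trametinib-free arm held the other 6, 3 given vehicle (control) and 3 given cediranib alone at 3 mg/kg. Cediranib, an inhibitor of the VEGF receptors, was therefore present in 3 tumors of each arm. The comparison asked which genes differed with MEK inhibition whether or not VEGF receptors were also inhibited. All 12 tumors grew under the skin of athymic nude mice from SVR cells, a single mouse endothelial line transformed by SV40 large T antigen and activated H-Ras, labelled as C57BL/6. The mice were young adults and were dosed daily by gavage, in one experiment until tumors ulcerated or passed the size limit and in another for a fixed number of days. The sources used here do not say from which of these each sequenced tumor came, so the time on drug is not known for each tumor and cannot be told apart from treatment. Nude mice lack thymus-derived T cells but keep B cells, natural killer cells and myeloid cells. The RNA came from whole tumors, and because tumor cells, stroma and overlying skin are all mouse, their transcripts were not separated. In such bulk samples, fewer cells of a type and less RNA per cell cannot be told apart. The labels number the tumors 1 to 3 in each group but do not say how else they were separate, so the p-values below measure the spread between these tumors.

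In the RAS pathway, activated RAS recruits RAF kinases, which phosphorylate MEK1 and MEK2, and these phosphorylate the ERK kinases. ERK then acts on ETS and serum response transcription factors, which switch on immediate early genes such as the EGR family, later targets such as cyclin D1, and a set of inhibitors (the dual-specificity phosphatases, Sprouty and Spred proteins) that damp the pathway in return. In endothelial cells the same cascade carries signals from VEGF receptors and other growth factor receptors.

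Read counts were given for 54232 genes, of which 29102 had a count in at least 1 tumor and 12897 passed the low-count filter and were tested. Library totals ran from 9478865 to 11666094 counts, and a count of 3 in a library corresponded to between 0.251 and 0.349 CPM (counts scaled to a common library size with TMM factors). Levels below are in these CPM and compare the same gene between tumors, not different genes. Skin markers differed between tumors in a way that the groups only partly followed. The summed level of all keratins was 4928 to 7164 CPM in the combination tumors and 60.0 to 91.6 CPM in the trametinib tumors, while in the trametinib-free arm it was 852 CPM in control 1, 5408 CPM in cediranib 1, 3779 CPM in cediranib 3 and no more than 189 CPM in the remaining 3 tumors. The 2 groups of the trametinib arm therefore lay far apart in keratin level, with cediranib 1 within the range of the combination tumors. Skeletal muscle markers summed to 22057 CPM in control 2 and 34070 CPM in trametinib 2, against 2725 CPM or less elsewhere.

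A gene was called when its difference between arms, with cediranib as a covariate, had a false discovery rate (FDR) of 0.05 or less by edgeR's quasi-likelihood test and a log2 fold change of at least 1.5 in either direction. With trametinib, 206 genes were called higher, 1.6% of those tested, and 210 were called lower, 1.63%. By FDR alone, 1041 genes rose (8.07%) and 1076 fell (8.34%). In 470 genes (3.64%) all 6 trametinib tumors lay above all 6 trametinib-free tumors, and in 560 (4.34%) all 6 lay below. The genes that were both called and fully separated numbered 106 in the higher direction (0.822%) and 136 in the lower (1.05%), and these 242 genes are the main subject here. A further 764 separated genes passed the FDR but not the fold, 24 separated genes missed the FDR, and 174 called genes had overlapping arms. The median log2 fold change over all genes tested was 0.007. When control 1, cediranib 1 and cediranib 3, the trametinib-free tumors richest in keratins, were left out, a choice made after seeing the data, 487 genes were called in place of 416.

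Ccnd1 (cyclin D1, which drives entry into the cell cycle from G1), Phlda1 (an immediate early gene of the pleckstrin homology-like family) and Itga6 (the α6 subunit of laminin-binding integrins) were among the genes with the smallest p-values. Ccnd1 ran from 89.5 to 123 CPM (median 104) in the 6 trametinib-free tumors and from 16.4 to 35.2 CPM (median 25.9) in the 6 trametinib tumors. Phlda1 (ENSMUSG00000020205, chr10:111506286-111508645, GRCm38) ran from 45.0 to 57.3 CPM (median 50.5) without trametinib and from 7.56 to 14.7 CPM (median 11.8) with it. The arms were wide apart in both genes, and the tumors of each arm differed little whether or not cediranib was given. The log2 fold change was -2.03 ± 0.13 (SE, 6 tumors against 6) for Ccnd1 and -2.13 ± 0.14 for Phlda1, each with an edgeR adjusted p of 2.2e-06. Itga6 (chr2:71745616-71856771) fell from 221 to 301 CPM (median 251) to between 20.4 and 52.5 CPM (median 32.2), a log2 fold change of -2.85 ± 0.19. Phlda1 is overlapped on the opposite strand by Gm28592, whose log2 fold change was -2.12, and the sources used here do not say whether reads were assigned by strand, so reads of such pairs cannot be told apart. The same holds for Nos3 with Atg9b and Gm15587, Htra1 with Fgfr2, and Pcdh19 with Gm26851, which overlap on opposite strands.

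**Figure D1:**
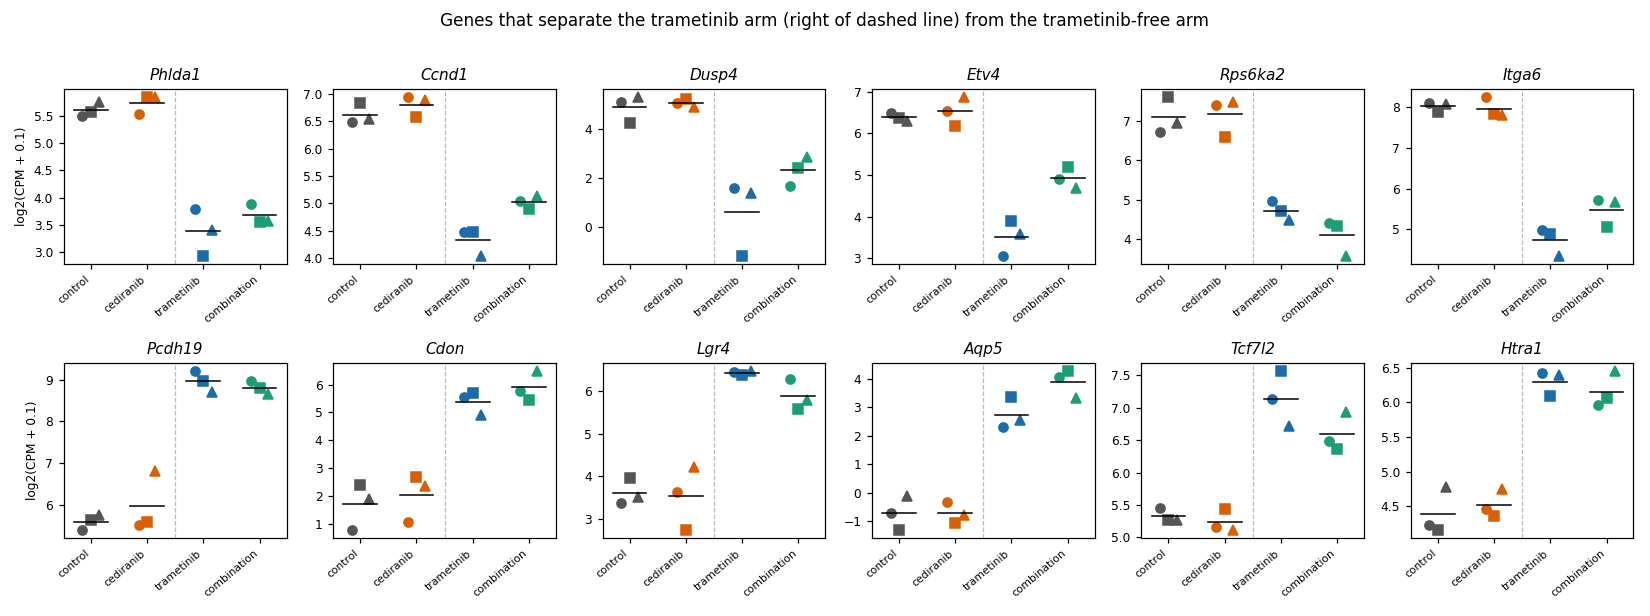
Levels of 12 genes in each tumor, as log2(CPM + 0.1), by group, with circles, squares and triangles for tumors 1, 2 and 3, black lines for the group means of 3 tumors and a dashed line between the trametinib-free groups (left) and the trametinib groups (right). In every panel the 6 tumors on the right lie wholly below (top row) or wholly above (bottom row) the 6 on the left.

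Inhibitors that ERK signaling induces against itself were among the genes that fell. Of 10 MAP kinase phosphatases, all of which were tested, 6 fell by FDR and 5 of these were called, against 8.34% and 1.63% of all genes. None rose, and the median log2 fold change of the list was -1.20. By FDR, 1 rose without control 3 or without trametinib 1, and 3 rose without the low-count filter. Dusp6, a cytoplasmic phosphatase specific for ERK, was 39.0 to 47.7 CPM (median 43.3) without trametinib and 1.98 to 13.9 CPM (median 7.37) with it, with a log2 fold change of -2.71 ± 0.31. Dusp4, a nuclear phosphatase, was 18.9 to 39.3 CPM (median 33.6) and 0.349 to 7.24 CPM (median 3.02), with a log2 fold change of -3.27 ± 0.38. No tumor of either arm reached the range of the other in these genes. Dusp5 (nuclear and ERK-specific, -2.87 ± 0.26) and Dusp9 (cytoplasmic, -1.79 ± 0.34) separated the arms too. Dusp2 was also called, but it was at 0 to 0.404 CPM in the trametinib arm, at about the level of 3 counts, and reached down to 0.287 CPM in cediranib 3. Dusp7 fell by 0.61 on the log2 scale. Dusp1, the phosphatase with the widest range of stress inputs, had a log2 difference of 0.56 ± 0.23 with an edgeR adjusted p of 0.13. Of 6 Sprouty and Spred genes tested, 3 fell and 1 rose (background 8.34% and 8.07%): Spry4 was 4.63 to 6.79 CPM (median 5.48) without and 0.466 to 1.72 CPM (median 0.874) with trametinib, and Spred1 and Spred3 fell by 1.07 and 1.22 on the log2 scale. Spry3 was called in the other direction, at 1.05 to 5.96 CPM without and 5.59 to 19.4 CPM with trametinib, a log2 fold change of 1.71 ± 0.39 with overlapping arms. It lay under the fold used for a call without cediranib 3 (1.48) or combination 2 (1.49), and missed the FDR without the 3 keratin-rich tumors (1.10).

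Several transcription factors at the output of the pathway fell with them. Of 8 ETS factors of the PEA3 group and EGR factors tested, 5 were called lower, with arms apart in all 5 (1.63% of all genes were called lower and 4.34% separated lower), and the list's median log2 fold change was -2.14. Egr1, an immediate early zinc-finger factor, was 57.3 to 88.1 CPM (median 83.4) without trametinib and 3.18 to 10.6 CPM (median 6.14) with it, a log2 fold change of -3.66 ± 0.28. Egr2 (-2.76 ± 0.34) and Egr3 (-2.08 ± 0.34) are relatives with the same binding preference. Etv4 and Etv5, PEA3-group ETS factors whose transcription follows ERK activity, fell by 2.21 ± 0.24 and 2.704 ± 0.33. Etv5 was 44.7 to 79.6 CPM (median 70.7) in the trametinib-free tumors and 3.84 to 21.1 CPM (median 10.8) in the others. Nab2, a corepressor of EGR proteins in the same list, rose by 0.40, and missed the FDR without control 3, trametinib 1, cediranib 1, cediranib 2, combination 1, combination 2 or the 3 keratin-rich tumors.

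The AP-1 proteins, dimers of FOS and JUN family members, did not move as a block. Of 21 AP-1 and other immediate early factors tested, 6 fell and 4 rose by FDR, against 8.34% and 8.07% of all genes, and the list's median was -0.39. Without the 3 keratin-rich tumors, 3 fell and 2 rose. Fosl1 fell from 3.35 to 5.595 CPM (median 4.10) to between 0.650 and 2.27 CPM (median 1.41), with a log2 fold change of -1.63 ± 0.29 that became -1.47 without combination 3, under the fold used for a call. Fos and Jun had log2 differences of -1.03 ± 0.39 and -0.37 ± 0.15 that did not pass the test. Jund rose by 1.23 ± 0.16 and Fosl2 by 0.88 ± 0.19. Klf4, a zinc-finger factor induced by serum in fibroblasts and by flow in endothelium, rose from 12.7 to 30.5 CPM (median 18.4) to between 60.5 and 92.3 CPM (median 71.6), and its arms did not overlap.

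Few genes of the cascade itself passed the test. Of 22 genes of the RAS, RAF, MEK and ERK core, 2 fell and 2 rose, close to the background of 8.34% and 8.07%, and the list's median was -0.08. The targets of the drug, Map2k1 and Map2k2, had log2 differences of -0.15 ± 0.14 and 0.25 ± 0.09 (edgeR adjusted p of 0.5 and 0.076), and Mapk3, which encodes ERK1, had a difference of 0.00 ± 0.09. Hras was 700 to 1213 CPM without trametinib and 538 to 787 CPM with it, an overlap of arms with an edgeR adjusted p of 0.062. Reads were aligned to the mouse genome, and whether some came from the activated H-Ras of SVR cells was not tested. The core gene called was Rps6ka2, which encodes RSK3, a ribosomal S6 kinase that ERK activates. It was 96.3 to 193 CPM (median 146) without trametinib and 11.9 to 31.0 CPM (median 21.7) with it, a log2 fold change of -2.73 ± 0.23. Rasa1 (-0.68) and Ksr1 (1.09) of the core also passed, and the counts moved by up to 2 genes when single tumors were left out: 4 fell without combination 1, and 1 rose without control 3, combination 2 or the 3 keratin-rich tumors.

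Promoter sequence was drawn from RefSeq (GRCm38.p6), from 250 bases before to 50 bases after a transcription start. These 4 promoters are shown because their genes were called and separated the arms and hold matches to elements through which ERK output is known to act: the CArG box that serum response factor binds, and the AP-1 element TGANTCA. The TEAD element GGAATG is marked in Lgr4 as well, and capitals mark each match on either strand. Dusp5 (chr19:53528895-53529194, plus strand) holds adjoining CArG boxes that begin 82 and 72 bases before the start, and Egr2 (chr10:67537619-67537918, plus strand, at one of its RefSeq starts) holds a CArG box 72 bases before it. Adgrg1 (chr8:94984149-94984448, plus strand, at 1 of its RefSeq starts), a gene that fell, holds AP-1 matches 141 and 59 bases before the start, while the promoter at its other listed start (chr8:94976859-94977158) held 0 matches to the elements searched. Lgr4 (chr2:109917397-109917696, plus strand), a gene that rose, holds a CArG box 146 bases and TEAD matches 178 and 158 bases before it.
Dusp5: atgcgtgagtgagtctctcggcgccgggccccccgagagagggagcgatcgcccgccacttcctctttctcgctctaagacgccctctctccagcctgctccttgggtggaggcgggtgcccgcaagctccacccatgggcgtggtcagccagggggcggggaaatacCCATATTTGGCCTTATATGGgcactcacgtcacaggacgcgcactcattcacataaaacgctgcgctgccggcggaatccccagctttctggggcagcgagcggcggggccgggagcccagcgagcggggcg
Egr2: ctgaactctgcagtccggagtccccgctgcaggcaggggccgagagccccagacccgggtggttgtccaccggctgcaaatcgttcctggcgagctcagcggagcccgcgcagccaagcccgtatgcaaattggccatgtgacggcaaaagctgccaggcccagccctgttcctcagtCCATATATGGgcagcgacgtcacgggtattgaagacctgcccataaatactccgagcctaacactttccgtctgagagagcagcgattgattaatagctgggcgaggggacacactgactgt
Adgrg1: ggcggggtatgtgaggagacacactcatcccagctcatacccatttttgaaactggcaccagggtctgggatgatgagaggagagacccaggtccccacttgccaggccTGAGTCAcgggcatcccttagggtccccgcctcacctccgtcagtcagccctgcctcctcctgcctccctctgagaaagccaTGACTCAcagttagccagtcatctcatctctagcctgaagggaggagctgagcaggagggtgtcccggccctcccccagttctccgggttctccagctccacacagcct
Lgr4: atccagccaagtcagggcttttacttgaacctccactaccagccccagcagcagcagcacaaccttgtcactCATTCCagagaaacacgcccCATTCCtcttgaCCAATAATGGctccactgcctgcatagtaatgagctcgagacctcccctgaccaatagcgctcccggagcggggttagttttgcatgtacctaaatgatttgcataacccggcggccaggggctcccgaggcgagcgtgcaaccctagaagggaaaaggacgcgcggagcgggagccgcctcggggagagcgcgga
Of the promoters of the same length for all genes tested (8819 genes with a match by symbol), 1.67% held a CArG box, 6.34% an AP-1 match and 14.2% a TEAD match. Only 78 of the 136 separated lower genes and 70 of the 106 separated higher genes had a promoter sequence, under 80% of each, so a check of motif shares over these sets was void. The matches describe letters and do not show that a factor bound.

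Of the 23 other genes often lowered by MEK inhibition that were tested, 16 fell, 8 of them past the fold, and none rose, against 8.34%, 1.63% and 8.07% of all genes, with a median log2 fold change of -1.02. Besides Ccnd1 and Phlda1, Hmga2 (a chromatin architectural factor active in embryos and tumors) was 333 to 573 CPM (median 441) without trametinib and 61.2 to 181 CPM (median 132) with it. Hbegf, a ligand of the EGF receptor, fell by 2.22 ± 0.25, and Plaur, the urokinase receptor, by 2.13 ± 0.32. Hmga2 is overlapped on the opposite strand by 1700006J14Rik, which had a log2 fold change of -2.19.

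Few replication or mitosis genes passed the test beside the lower Ccnd1. Of 41 DNA replication genes, 0 fell and 2 rose by edgeR (Rfc3 by 0.41 and Rrm2 by 0.46), against 8.34% and 8.07% of all genes. The list's median was 0.10. At an unadjusted p under 0.05, 2 were lower and 8 higher, and by DESeq2 0 fell and 5 rose. The count of 2 became 1 without control 2, control 3, trametinib 2, trametinib 3, cediranib 1, cediranib 3 or combination 1, and 0 without the 3 keratin-rich tumors. Of 37 mitosis genes, 0 fell and Prc1 alone rose by edgeR, by 0.45, against the same background, and the median was 0.07. At an unadjusted p under 0.05, 1 was lower and 5 higher, and by DESeq2 0 fell and 3 rose. With edgeR, 1 replication gene fell without cediranib 3 and 1 mitosis gene fell without trametinib 2, while 2 mitosis genes rose without cediranib 2 and 3 without combination 3. Mki67, the proliferation antigen, was 17.5 to 34.4 CPM (median 30.2) without trametinib and 21.3 to 38.4 CPM (median 31.6) with it, a log2 difference of 0.08 ± 0.18. Among 18 G1 regulators, 2 fell and 3 rose by FDR, against the same background. Ccnd1 was the only call, where 1.63% of all genes were called lower. The CDK inhibitors Cdkn2c and Cdkn1b rose by 1.17 ± 0.16 and 0.73 ± 0.17.

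Ribosome biogenesis genes fell by less than the fold used for a call but did so widely. Of 48 genes of the MYC and ribosome biogenesis list, 28 passed the FDR, all of them lower, and in 24 the arms were fully apart. The background for these counts was 8.34% and 4.34% of all genes. The list's median log2 fold change was -0.55. Myc was 31.4 to 41.4 CPM (median 35.7) in the trametinib-free tumors and 15.01 to 21.8 CPM (median 17.6) in the trametinib tumors, a log2 fold change of -0.99 ± 0.12. Polr1b, a subunit of RNA polymerase I, fell by 1.03 ± 0.12, and Nop56, a core protein of box C/D small nucleolar ribonucleoproteins, fell from 169 to 200 CPM (median 177) to between 106 and 120 CPM (median 111). Leaving out single tumors gave 27 to 29 lower genes, and leaving out the 3 keratin-rich tumors gave 19.

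**Figure D2:**
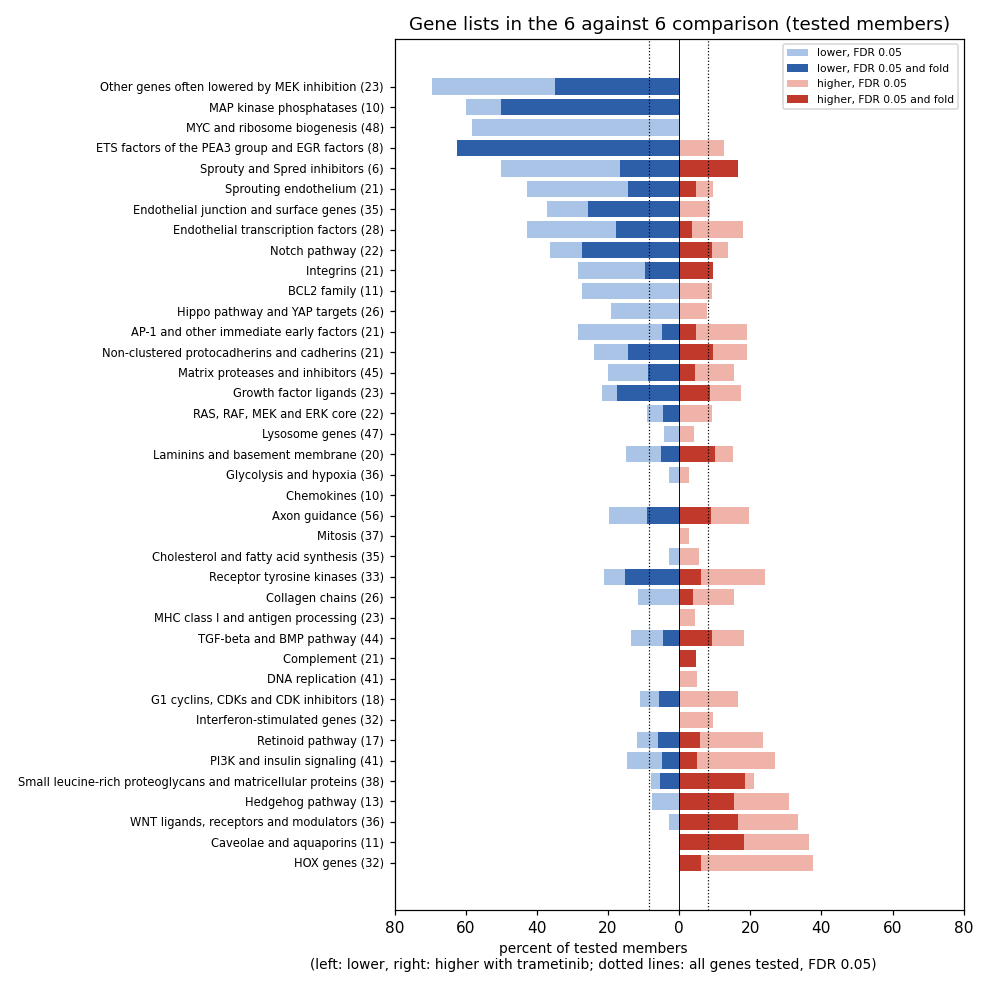
Percent of the tested members of each gene list that were lower (blue, left) or higher (red, right) with trametinib, pale for FDR 0.05 and dark for FDR 0.05 with the minimum fold, with the number tested in parentheses and dotted lines at the share of all genes (8.34% lower, 8.07% higher). MEK-lowered genes, phosphatases, ribosome biogenesis and PEA3/EGR factors extend farthest left, and HOX, aquaporin, WNT and Hedgehog lists farthest right.

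Others of the 12 lower genes with the smallest p-values lay outside these lists. Rhbdf2 (iRhom2, which guides the sheddase ADAM17 to the surface) was 32.5 to 46.7 CPM (median 38.2) without trametinib and 10.0 to 14.7 CPM (median 12.8) with it. Adgrg1 (the adhesion receptor GPR56) was 29.7 to 38.9 CPM (median 34.2) and 9.80 to 11.99 CPM (median 10.6). In both the spread within an arm was small beside the distance between the arms, and the log2 fold changes were -1.62 ± 0.10 and -1.66 ± 0.11. Add2 (β-adducin, a capper of actin filaments, -2.02 ± 0.13, with Gm44089 on the opposite strand at -1.96), Dock8 (an exchange factor for CDC42, -2.10 ± 0.18) and Shank3 (a scaffold best known from synapses, -2.19 ± 0.19) had fully separated arms. Selp (P-selectin, which tethers leukocytes to endothelium) had the largest fold of the 12, from 4.34 to 9.73 CPM (median 6.32) down to 0.167 to 0.817 CPM (median 0.458), a log2 fold change of -3.81 ± 0.34.

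Genes that rose began with Pcdh19, a non-clustered protocadherin that joins cells by homophilic contact (chrX:133582860-133688987). Pcdh19 was 42.2, 49.5 and 53.6 CPM in the controls and 45.5, 48.2 and 111 CPM in the cediranib tumors. It was 589, 503 and 418 CPM in the trametinib tumors and 499, 443 and 404 CPM in the combination tumors. Every trametinib tumor lay above every trametinib-free tumor, including cediranib 3, which stood above the rest of its arm. The log2 fold change was 3.04 ± 0.23, with an edgeR adjusted p of 7.4e-06.

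Aqp5, a water channel of glands and lung, rose from 0.304 to 0.808 CPM (median 0.495) to between 4.81 and 19.2 CPM (median 9.98), a log2 fold change of 4.27 ± 0.34. Aqp5 was raised in both groups of the trametinib arm, where keratins summed to 60.0 to 91.6 CPM (trametinib) and 4928 to 7164 CPM (combination). The part of skin in the Aqp5 result was not tested. Tnr, the matrix glycoprotein tenascin-R, had the largest fold of the 12 higher genes with the smallest p-values. It was 0.0946 to 0.699 CPM (median 0.152) without trametinib, 16 counts over 6 libraries, and 2.68 to 24.9 CPM (median 15.1) with it, and its log2 fold change was 5.78 ± 0.53. Htra1 (a secreted serine protease, 1.77 ± 0.14), Gas7 (an actin-binding protein of the F-BAR type, 1.77 ± 0.16), Mtss1l (a membrane-bending actin regulator, 2.20 ± 0.20), Ldlrad3 (a membrane protein with LDL-receptor repeats, 2.34 ± 0.21), Rab30 (a Golgi GTPase, 2.82 ± 0.29) and Has1 (a hyaluronan synthase, 2.36 ± 0.23) were also fully separated. Has2, a second hyaluronan synthase, went the other way: 2.00 to 15.1 CPM (median 6.53) without and 0.363 to 1.91 CPM (median 1.07) with trametinib, a log2 fold change of -2.71 ± 0.46.

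Of 36 WNT ligands, receptors and modulators tested, 12 rose, 1 fell and 23 did not pass, against a background of 8.07% and 8.34%, and the median log2 fold change was 0.25. Lgr4, a receptor for R-spondins that raises WNT signaling, was 6.62 to 18.6 CPM (median 11.9) without trametinib and 47.8 to 88.9 CPM (median 80.8) with it, a log2 fold change of 2.54 ± 0.23. The transcription factors Tcf7l2 and Tcf7l1, which act with β-catenin, rose by 1.62 ± 0.16 and 1.76 ± 0.21, and the arms did not overlap in either, although Tcf7l2 came to 1.48 without trametinib 2. The ligands Wnt10b and Wnt10a rose from a median of 1.47 to 14.7 CPM and from 0.277 to 3.72 CPM. Axin2, a common target of β-catenin, rose by 1.24 ± 0.35 with overlapping arms. Wnt7b fell by 1.21 ± 0.14, and its arms were apart. The number of WNT genes that rose was 7 without combination 3 and 7 without the 3 keratin-rich tumors. Rspo3 was uneven within the arm: 0.635, 1.05 and 0.837 CPM in the trametinib tumors, 6.97, 10.7 and 16.7 CPM in the combination tumors, and 0 to 1.22 CPM in the trametinib-free arm. Hair follicle markers summed to 71.6 to 1017 CPM without trametinib and 61.7 to 707 CPM with it, highest in cediranib 3. Of 21 tested, 1 rose and 1 fell, and 10 rose without cediranib 3. Their part in the WNT results was not tested.

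Of 13 Hedgehog genes tested, 4 rose and 1 fell (background 8.07% and 8.34%), and 8 did not pass. Cdon, a coreceptor for Hedgehog ligands, was 1.62 to 6.34 CPM (median 4.31) without trametinib and 30.1 to 89.6 CPM (median 49.3) with it, a log2 fold change of 3.73 ± 0.32. The target gene and receptor Ptch1 rose by 0.46 ± 0.14, with overlapping arms, and the ligand Dhh fell by 1.18. Of 32 HOX genes tested, which encode positional identity, 12 rose and none fell, with arms apart in 9 and a median of 0.72, where 8.07% of all genes rose and 3.64% were separated upward. Most of the rises were under the fold used for a call, as in Hoxa5 (0.75 ± 0.17), from 2.87 to 5.05 CPM to between 5.78 and 8.81 CPM. Leaving out single tumors gave 11 to 14 HOX genes that rose.

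The tumors grew from an endothelial line, and more endothelial junction and surface genes fell than rose. Of 35 tested, 13 fell, 9 of them past the fold, 3 rose and 19 did not pass, against 8.34% lower, 1.63% lower past the fold and 8.07% higher among all genes, with a median log2 fold change of -0.89. Without the 3 keratin-rich tumors, 14 fell past the fold. Pecam1 (CD31, the junction protein used to stain vessels) was 2.39 to 5.01 CPM (median 4.02) without trametinib and 0.272 to 1.18 CPM (median 0.526) with it. Cdh5 (VE-cadherin, the adherens junction cadherin of endothelium) was 26.0 to 120 CPM (median 53.8) and 6.90 to 24.4 CPM (median 17.9). Nos3 (endothelial nitric oxide synthase) was 151 to 375 CPM (median 223) and 15.3 to 78.8 CPM (median 55.4). The arms were apart in these genes, with log2 fold changes of -2.60 ± 0.33, -1.94 ± 0.35 and -2.21 ± 0.29. Tie1, an orphan receptor of the angiopoietin system, fell by 2.18 ± 0.35 with a narrow overlap of arms, from 60.7 to 190 CPM against 14.8 to 60.9 CPM. Gja1 (connexin 43), Cav1 (caveolin 1) and Tjp1 (ZO-1) were the 3 that rose, by 1.05 ± 0.15, 1.07 ± 0.15 and 0.38. Of 28 endothelial transcription factors, 12 fell, 5 rose and 11 did not pass, and the venous factor Nr2f2 was among those that rose, by 0.99 ± 0.15. The summed level of 19 endothelial markers was 173.6 to 585 CPM (median 375) without trametinib and 88.2 to 199 CPM (median 149) with it. The share of that signal from SVR cells and from host vessels was not tested.

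Of 22 Notch pathway genes tested, 8 fell and 3 rose, against 8.34% and 8.07% of all genes, and 1 rose without the 3 keratin-rich tumors. Notch4, the receptor with the most endothelium-restricted expression, was 24.02 to 43.7 CPM (median 30.3) without trametinib and 7.62 to 12.2 CPM (median 10.0) with it. Dll4, the ligand of arterial and tip cells, was 1.30 to 15.7 CPM (median 3.52) and 0 to 1.28 CPM (median 0.409). Mfng, a glycosyltransferase that modifies Notch receptors, fell by 2.47 ± 0.39, and Rbpj, the DNA-binding effector, fell by 0.96 ± 0.11. Notch3, the receptor of mural cells, rose from 17.5 to 27.9 CPM (median 22.6) to between 39.0 and 157 CPM (median 53.4), a log2 fold change of 1.55 ± 0.31 that lay under the fold used for a call without combination 3 (1.21), cediranib 1 (1.42), cediranib 2 (1.49) or cediranib 3 (1.49). Pericyte and smooth muscle markers, a list that holds Notch3 itself, summed to 126.5 to 595.5 CPM without and 128 to 1955 CPM with trametinib, and their part in the Notch3 result was not tested.

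Receptors and ligands of growth factor signaling moved in both directions. Of 33 receptor tyrosine kinases tested, 7 fell and 8 rose, against 8.34% and 8.07% of all genes (5 rose without cediranib 1 or the 3 keratin-rich tumors), and the median was -0.13. Ntrk3, the receptor for neurotrophin 3, was 6.06 to 110 CPM (median 19.8) without trametinib and 0 to 1.67 CPM (median 0.698) with it, a log2 fold change of -5.41 ± 0.73. Flt1 (VEGFR1) fell by 1.38 ± 0.27 and Kdr (VEGFR2) by 1.79 ± 0.38. The call for Kdr was lost without control 3 (-1.43) and with a score of the pericyte markers as a covariate (-1.27). Of 23 growth factor ligands, 5 fell and 4 rose, against the same background. Tgfa, an EGF receptor ligand, was 6.08 to 9.89 CPM (median 7.97) without and 1.26 to 2.78 CPM (median 2.11) with trametinib. Pdgfa and Pdgfb fell by 1.65 ± 0.24 and 1.75 ± 0.27, and lay under the fold used for a call with the pericyte covariate (-1.48 and -1.40). Vegfd, a ligand for lymphatic and vascular VEGF receptors, rose from 0.378 to 1.82 CPM (median 0.537) to between 4.08 and 7.37 CPM (median 4.91). Angpt1, the agonist of the receptor TIE2, rose by 2.05 ± 0.51, with arms that overlapped: 3.30 to 14.1 CPM against 6.87 to 80.6 CPM.

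In phosphoinositide signaling, 6 of 41 PI3K and insulin signaling genes fell and 11 rose, against 8.34% and 8.07% of all genes, and 7 rose without the 3 keratin-rich tumors. Inpp4b, a phosphatase that removes PI(3,4)P2, was 39.9 to 85.6 CPM (median 68.8) without trametinib and 5.75 to 16.8 CPM (median 8.35) with it. Pik3ip1, an inhibitor of PI3K, and Sesn1, an inhibitor of mTORC1, rose by 1.40 ± 0.29 and 1.28 ± 0.15, and the transcription factors Foxo1 and Foxo3 rose by 0.96 and 0.93. Of 11 BCL2 family genes, 3 fell and 1 rose, against the same background (2 rose without control 1). The survival proteins Bcl2l1, Bcl2 and Mcl1 fell by 1.29 ± 0.20, 1.34 ± 0.31 and 0.26, and Bcl2l1 separated the arms. The death-promoting member Bad rose by 0.53 ± 0.11, and its arms were apart, at 20.7 to 25.6 CPM against 26.4 to 40.2 CPM.

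Of 45 matrix proteases and inhibitors, 9 fell and 7 rose, against 8.34% and 8.07% of all genes. Timp3, a matrix-bound inhibitor of metalloproteinases, rose from 23.4 to 47.4 CPM (median 30.9) without trametinib to between 67.6 and 190 CPM (median 112) with it. Of the integrins, Itga10 (a collagen receptor) and Itga7 (a laminin receptor of muscle) rose by 2.53 ± 0.39 and 2.23 ± 0.33 as Itga6 fell. Col4a5, a basement membrane collagen chain, rose from 1.11 to 6.22 CPM (median 3.67) to between 18.7 and 28.6 CPM (median 21.5), while Col4a1 and Col4a2 fell by 1.05 and 0.77. Fibroblast markers summed to 2317 to 21913 CPM without trametinib and 3615 to 38090 CPM with it. Of 16 fibroblast markers tested, 7 rose and none fell, 3 without the keratin-rich tumors, with a median of 0.74. Skeletal muscle, none of whose 22 markers passed the test, was highest in 1 tumor of each arm. The part of either tissue in the matrix and integrin results was not tested. Axon guidance genes, many of which also steer vessels, divided evenly (same background): of 56 tested, 11 fell, such as Sema6d (90.2 to 121 CPM against 14.1 to 42.8 CPM), and 11 rose, such as Sema3a (9.93 to 20.5 CPM against 31.9 to 47.8 CPM).

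The comparison was also made within each part of the design, where the tumors do not overlap: 3 trametinib against 3 control tumors, and 3 combination against 3 cediranib tumors. Without cediranib, 119 genes were called higher (0.993%) and 158 lower (1.32%). With cediranib, 158 were called higher (1.3%) and 120 lower (0.986%). Of the 277 calls made without cediranib, 260 were tested with cediranib, 255 of these had the same direction there (98.1%) and 123 (47.3%) were also called. Of the 278 calls made with cediranib, 261 were tested without it, 252 had the same direction (96.6%) and 123 (47.1%) were also called. Among all 11574 genes tested in both, 68.2% had the same direction. No gene was called in opposite directions, and the 123 shared calls comprised 79 lower and 44 higher genes. Of the 158 lower calls made without cediranib, 152 were tested with it, and their median log2 fold change was -2.23 without and -1.77 with cediranib. Of the 119 higher calls, 108 were tested with it, with medians of 2.27 and 1.70. For the calls made with cediranib and tested without it, the median was -2.05 with it and -2.13 without it for 117 lower genes. For 144 higher genes it was 1.99 and 1.39. The genes were selected by their size in the part where they were called, so these medians are not a like comparison of the 2 parts. Phlda1, for example, had log2 fold changes of -2.20 without and -2.08 with cediranib, Rhbdf2 of -1.60 and -1.65, and Cdon of 3.62 and 3.80.

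**Figure D3:**
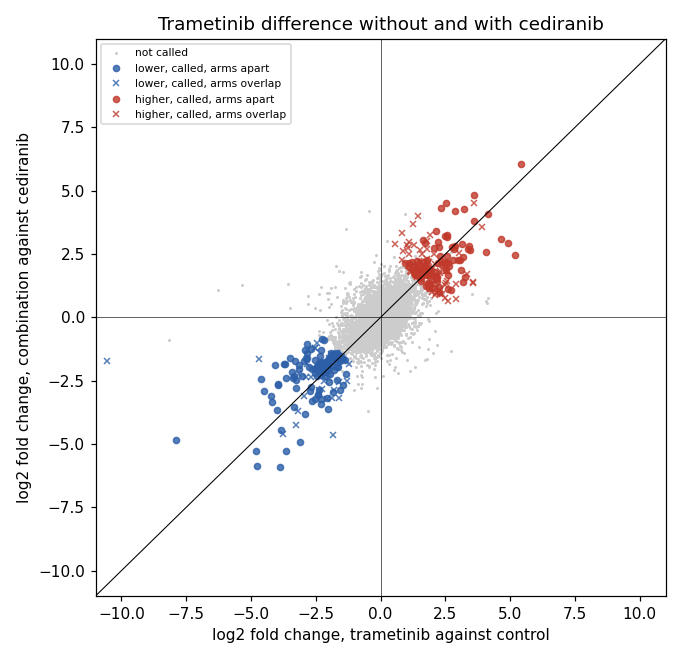
Log2 fold change of each gene tested in both parts of the design, trametinib against control on the horizontal axis and combination against cediranib on the vertical axis, with the line of equal change, gray for genes not called in the comparison of 6 against 6, blue for lower, red for higher, circles for separated arms and crosses for overlapping arms. Most colored points lie in the lower left and upper right quadrants, and the cross at the far left is Ivl, which had no count in the 3 trametinib tumors.

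Whether cediranib changed the size of the trametinib difference was tested as an interaction over all 12 tumors. By edgeR's quasi-likelihood test 0 genes passed an FDR of 0.05 (0%), 909 had an unadjusted p under 0.05, and the smallest adjusted p was 0.19. By edgeR's likelihood ratio test 28 genes passed, and by DESeq2 36. The 3 genes with the smallest interaction p were Ccr1, Il1b and Crabp2. Ccr1 (a chemokine receptor of myeloid cells) was 2.62 ± 0.247 CPM (SD, n = 3) in control, 1.73 ± 0.461 in cediranib, 0.224 ± 0.0530 in trametinib and 2.27 ± 0.940 in combination tumors. Il1b (interleukin 1β) was 2.46 ± 0.757, 2.57 ± 0.756, 0.343 ± 0.175 and 4.65 ± 1.70 CPM in the same order. In both, only the trametinib tumors were low, at about the level of 3 counts. Crabp2 (a retinoic acid carrier), which separated the arms, was 0.852, 1.72 and 2.12 CPM in control, 2.40, 1.89 and 3.16 in cediranib, 48.4, 53.1 and 68.1 in trametinib and 12.8, 10.3 and 18.2 in combination tumors. Its log2 fold change was 5.17 without and 2.46 with cediranib.

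The phosphatase, Sprouty and Spred, PEA3/EGR and MEK-lowered lists held 30 genes that fell, of which 28 were tested in both parts of the design. In 24 of the 28 the size of the difference was smaller with cediranib than without it, as with Dusp6, and 0 of the 30 passed the interaction test (lowest edgeR adjusted p of 0.19). The same count was not made over all genes that fell, so 24 of 28 cannot be read as particular to these lists. Dusp6, Etv5 and Egr1 are described as examples chosen after their values were seen. Dusp6 was 4.54, 1.98 and 3.60 CPM in the trametinib tumors and 13.9, 11.3 and 10.2 CPM in the combination tumors, against 39.0 to 47.7 CPM in the trametinib-free arm, and its log2 fold change was -3.71 without and -1.86 with cediranib (interaction 1.84 ± 0.32, edgeR adjusted p of 0.19). Etv5 had log2 fold changes of -3.68 and -1.83, and Egr1 of -4.50 and -2.92 (adjusted p of 0.3 and 0.25). In these 3 genes every combination tumor lay above every trametinib tumor and below every trametinib-free tumor. The combination tumors also carried more keratin RNA than the trametinib tumors, as given above, and its part in these values was not tested.

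Markers of blood and immune cells gave the last group. Erythroid markers fell: of 9 tested, 5 passed, all lower, with a median log2 fold change of -3.02 and overlapping arms in each. Among all genes tested, 8.34% fell and 8.07% rose by FDR, which is the background for the counts in this paragraph. Hbb-bs, an adult β-globin gene, was 172, 50.2 and 1158 CPM in the controls, 27.1, 398 and 33.9 CPM in the cediranib, 57.3, 25.6 and 59.8 CPM in the trametinib and 8.99, 6.35 and 8.72 CPM in the combination tumors. Control 3 and cediranib 2 stood far above the rest. The Hbb-bs log2 fold change was -3.73 with all tumors, -2.94 without control 3 and -2.73 without cediranib 2, and of the 5 erythroid calls 3 were left without control 3 and 4 without cediranib 2. Of 23 macrophage and myeloid markers 3 fell, against 8.34% of all genes. None of the markers fell without control 2, control 3, trametinib 3, cediranib 1, cediranib 2 or combination 1. Without trametinib 1, combination 2 or combination 3, 1 fell. The myeloid sum was 483 to 903 CPM without and 351 to 673 CPM with trametinib. Markers of T, NK and B cells summed to 5.55 to 15.9 CPM in all 12 tumors. No keratin of interfollicular epidermis among 11 tested passed by edgeR, by DESeq2 or at an unadjusted p under 0.05. Without the low-count filter, 8 keratins of the list were lower by FDR, 3 of them past the fold. With the 3 keratin-rich tumors left out, 4 were higher. Those tumors were chosen for their keratin level, so that count was favored in advance and says nothing on trametinib. Of 10 chemokines 0 passed by edgeR, 1 fell by DESeq2 and 3 were lower at an unadjusted p under 0.05. With edgeR, 1 fell without control 3, trametinib 3 or cediranib 3, and 2 did without trametinib 2 or without the 3 keratin-rich tumors. Of 32 interferon-stimulated genes, 3 rose by edgeR, close to the background of 8.07%. The count was 1 without cediranib 1, 5 without combination 3 and 0 without the 3 keratin-rich tumors. At an unadjusted p under 0.05, 11 were higher and 0 lower, and 4 rose and 0 fell by DESeq2.

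**Figure D4:**
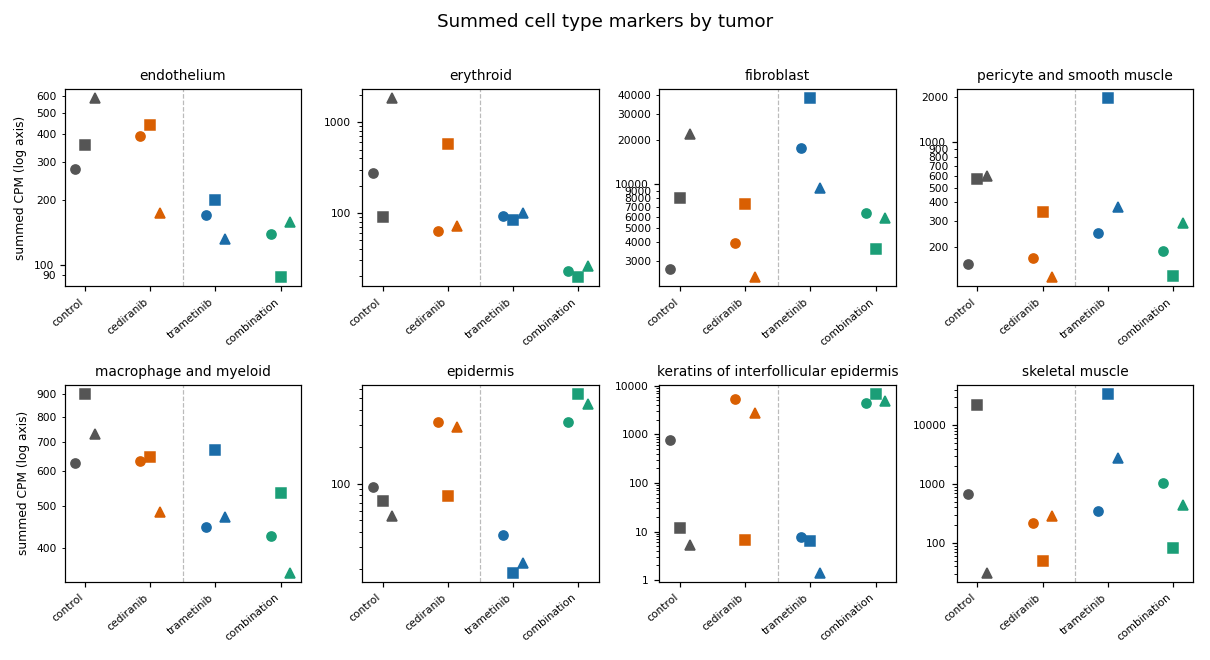
Summed CPM of the markers of 8 cell types in each tumor (log axis), by group, with circles, squares and triangles for tumors 1, 2 and 3 and a dashed line between the trametinib-free (left) and trametinib groups (right). Endothelial sums are lower on the right with a small overlap, keratin sums are high in combination tumors and in some trametinib-free tumors, and muscle sums are highest in control 2 and trametinib 2.

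At the edge of separation, the closest called genes just inside were Gm11843, with a lowest trametinib-free level of 1.52 CPM against a highest trametinib level of 1.51 CPM, and Galnt15 (a mucin-type O-glycosylation enzyme), with 1.16 CPM against 1.15 CPM. Just outside were Tie1, described above, and Esr1 (estrogen receptor α), whose lowest trametinib tumor was at 2.91 CPM and highest trametinib-free tumor at 2.94 CPM. The call for Gm11843 was lost without control 1, trametinib 3, cediranib 2 or combination 3, with log2 fold changes of -1.42, -1.42, -1.24 and -1.36 there.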

How the data were processed

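Total RNA from 12 flash-frozen whole SVR tumors, 3 per treatment group, had been made into libraries with an exome-capture RNA kit, which enriches coding exons, so that levels of uncaptured transcripts are less certain. The deposited table holds raw read counts per gene. By the authors' methods and the submitters' processing notes, reads were converted with bcl2fastq 1.8.4, aligned to GRCm38 with STAR 2.7.1a and counted with featureCounts 1.6.0. Neither strand nor multi-mapper settings nor the gene annotation version were given. The deposited coding length is another column and was not used. Of the 54232 gene identifiers, 54165 are in GENCODE M21, 53154 with the same name.

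Genes were kept by edgeR's filterByExpr over the 4 groups (minimum count 10, minimum total 15). TMM factors ran from 0.908 to 1.10, and the biological coefficient of variation was 27.7%. The quasi-likelihood test of edgeR 4.0.16 (R 4.3.3) was fitted with trametinib and cediranib as terms over all 12 libraries, with Benjamini-Hochberg adjustment over all genes tested. A prior count of 2 was used for log2 CPM values alone, and fold changes kept edgeR's default prior. Standard errors were obtained from the fold change and the square root of its F statistic. Each part of the design was fitted on its own 6 libraries, and the interaction on all 12. Arms were called separated when the 6 TMM-scaled CPM of one lay wholly above or below those of the other. On counts simulated for the 12897 genes, the main comparison recovered 93.9% of genes changed by a log2 fold of 2 and 69.6% of those changed by 1.5, at the same FDR without a minimum fold. No 2 libraries were identical. Alternatives were other scalings, DESeq2 1.42.0, the likelihood ratio test, no filter, glmTreat, other covariates and leaving out each library.

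Named genes were the 12 protein-coding called and separated genes per direction with the smallest p, the 3 per direction with the highest mean CPM, the 3 smallest interaction p-values, called members of the gene lists, the drug targets and the genes nearest to the edge of separation. Members of a list are also named where they passed the FDR alone or show the range of the list, and these were chosen after their values were seen. The members, gene lists and tests were chosen with earlier results of these data known. Intervals and limits of 3 counts cover counting error only. Results for some of the genes that the naming rule selected are not reported here.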

Additional observations from a re-analysis of the deposited data

Results flagged for a closer look

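In 118 named genes, the 6 tumors of each arm were searched for 1 tumor standing apart from the other 5 by Dixon's ratio, the gap to the nearest tumor divided by the range of the arm, against its 95% critical value for 6 values. Of the 236 groups, 9 were found, and chance gives about 1 in 20. Combination 3 held 4 of them: it was highest in Has1 (35.7 CPM, ratio 0.709), Sema6d (42.8 CPM, 0.766) and Sema3c (71.4 CPM, 0.733) and lowest in Dusp9 (0.278 CPM, 0.788). Trametinib 3 was lowest in Nos3 (15.3 CPM against 51.9 CPM in the next tumor, 0.745), and trametinib 2 was lowest in Tnr (2.68 CPM against 11.6 CPM, 0.652). Combination 2 was highest in Dlx3 (42.9 CPM, 0.637), a homeobox gene of hair follicle and epidermis. In the trametinib-free arm, cediranib 3 was highest in Pcdh19 (111 CPM against 53.6 CPM, 0.754), and control 1 had the only count in Spon2 (0.0852 CPM, ratio 1), which is too few to compare. The cause was not tested in any of these.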

How the results depend on the processing

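For the 118 named genes, 2771 of the repeated values stayed on their side of the threshold, 178 missed it, 1 newly passed it, and no called gene changed sign. Mapk3, near 0 and not called, changed sign in 7 of its 25 repeats. The 416 calls of the main comparison became 680 without a low-count filter (363 higher, 317 lower), 2117 without a minimum fold (1041 higher, 1076 lower) and 161 when the fold was tested against 1 on the log2 scale by glmTreat (63 higher, 98 lower), where 39.1% were higher in place of 49.5%. Leaving out single libraries gave 380 to 435 calls, 174 to 211 of them higher and 193 to 237 lower (43.2% to 50.3% higher), and 1147 to 1255 separated genes. With the 3 keratin-rich trametinib-free libraries left out, 2141 genes were separated, a count that fewer tumors also raise. With the pericyte score as a covariate, also added after seeing the data, 409 genes were called. Library totals without TMM moved the median log2 fold change of all genes to 0.063.

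The interaction count of 0 became 28 with the likelihood ratio test, 36 with DESeq2 and 373 without a filter, and 0 to 1 when single libraries were left out, 1 without cediranib 3. Without cediranib the 277 calls became 563 with no filter and 172 to 254 with a library left out, the lowest without control 2 (172) and trametinib 1 (175). With cediranib the 278 calls became 661 with no filter, 436 with the likelihood ratio test and 123 to 273 with a library left out, the lowest without cediranib 1 (123), combination 1 (131) and combination 2 (131). The replicate numbers did not pair the tumors: deviations from the group means of 18 same-numbered pairs correlated at -0.219 to 0.356, 3 of them over 0.1, and those of 36 other pairs at -0.438 to 0.354. With the replicate number as a block, 400 genes were called in the main comparison, 156 with cediranib, 236 without it, and 0 in the interaction. The cause of these changes was not tested. Depth limits statements on genes near 3 counts, such as Dusp2, Ccr1 and Il1b in the trametinib tumors.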
